A study of Mus musculus with 2 samples.

Results

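The collagen genes of mouse are the 44 genes, of 32285 in each matrix, whose symbol has the form Col, a type number, a and a chain number. All of them were followed in 2 libraries of CD45-negative lung cells, across fibroblasts, pericytes, endothelial cells and alveolar type 1 cells. The lungs came from C57Bl mice that had received a suspension of single cells carrying the red fluorescent protein tdTomato and were harvested 6 months later. Cells of 3 such chimeric mice were pooled before sorting, and the donor library holds the tdTomato-positive cells and the recipient library the tdTomato-negative cells. Both libraries therefore come from the same transplanted lungs, and no lung without a transplant is among them. Donor strain, cell number, conditioning and age are not given in the sources used here. With 1 library per group no test was possible, and every interval below is a 95% interval for counting error only.

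Collagens are secreted proteins in which 3 chains wind into a triple helix. Fibrillar collagens (types I, III and V among them) bear load in the interstitium, whereas type IV collagen forms the sheet of the basement membrane that endothelium and epithelium share in the alveolar wall. Type IV is assembled from different chain sets, Col4a1 with Col4a2 in nearly all basement membranes and Col4a3 with Col4a4 and Col4a5 in a few, such as those of lung alveoli and kidney glomeruli. Other collagens decorate fibrils (types XII, XIV, XVI), form beaded filaments (type VI) or hexagonal networks (type VIII), span the cell membrane (types XIII, XVII, XXIII) or carry long interrupted helices near basement membranes (types XV, XVIII).

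Cells were assigned to a type from the UMIs, that is the single captured transcripts, of marker genes, none of which is a collagen. The recipient library gave 586 alveolar fibroblasts, 177 adventitial fibroblasts, 181 myofibroblasts, 428 pericytes, 306 general capillary cells, 632 aerocytes (the other capillary cell type of the alveolus), 91 venous, 74 lymphatic and 184 type 1 cells. The donor library gave 1869 general capillary cells, 1545 aerocytes, 100 venous, 50 arterial and 58 type 1 cells. It held 42 pericytes, shown beside the others although under the limit of 50 cells, and 4 alveolar and 5 adventitial fibroblasts and 1 myofibroblast, which were not used. Of check markers outside the gates, 24 of 27 were highest in their own type in the recipient library and 15 of 17 in the donor library. Gate and check markers alike were chosen with earlier results of these data known. Both donor misses fell in general capillary cells, where 1 of 3 was highest. There Lpl and Cd93 stood at 377 and 1632 CPM, against 391 CPM of Lpl in arterial and 1781 CPM of Cd93 in venous cells, and at 6.27 and 31.5 CPM in aerocytes. The recipient misses were Lpl in general capillary cells (143 CPM, against 153 in myofibroblasts), Lyve1 in lymphatic cells (806 CPM, against 1321 in venous cells), 1 of only 2 check markers of that type, and Itga7 in pericytes (3.47 CPM, against 5.31 in type 1 cells). Levels are UMIs of a gene per 1000000 UMIs of the type (CPM). They compare 1 gene, or 1 pair of genes, between types, since transcript length differs between genes.

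The 2 libraries shared 816 cell barcodes, 12.9% of those of the donor library and 21.6% of those of the recipient library, and the donor copy was more than 5-fold smaller in 728 of them. The smaller copy was left out. Of the recipient cells, 120 of the 177 adventitial fibroblasts and 140 of the 184 type 1 cells carry such a barcode. The called ratios and some levels of these types are therefore also given for the 57 and 44 cells without one. The other values, among them collagen totals, class shares, counts of members and chain ratios, include cells with a shared barcode.

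Of the 44 collagen genes, 22 reached 50 CPM in at least 1 gated type of 50 or more cells. A further 6 peaked between 10 and 50 CPM, 13 stayed above 0 but under 10 CPM, and 3 had no UMI in any such type. The 42 donor pericytes, where Col7a1 reached 52.4 CPM, are not part of this count. Summed over all members, collagen UMIs made up 11001 CPM in adventitial fibroblasts, 6373 in pericytes, 5701 in alveolar fibroblasts and 4444 in myofibroblasts of the recipient library. Type 1 cells came next at 4048 CPM, ahead of aerocytes at 1360, general capillary cells at 993, lymphatic cells at 953 and venous cells at 741. The number of members at 50 CPM or more was 17 in adventitial fibroblasts, 15 in myofibroblasts, 14 in alveolar fibroblasts and 13 in pericytes, against 7 in type 1 cells and 2 to 4 in the endothelial types. The make-up differed as well. Fibrillar chains gave 75.4% of collagen UMIs in adventitial fibroblasts and 19.2% in pericytes, whereas type IV chains gave 55.7% in pericytes, 86.3% in general capillary cells and 95.7% in type 1 cells.

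**Figure D1:**
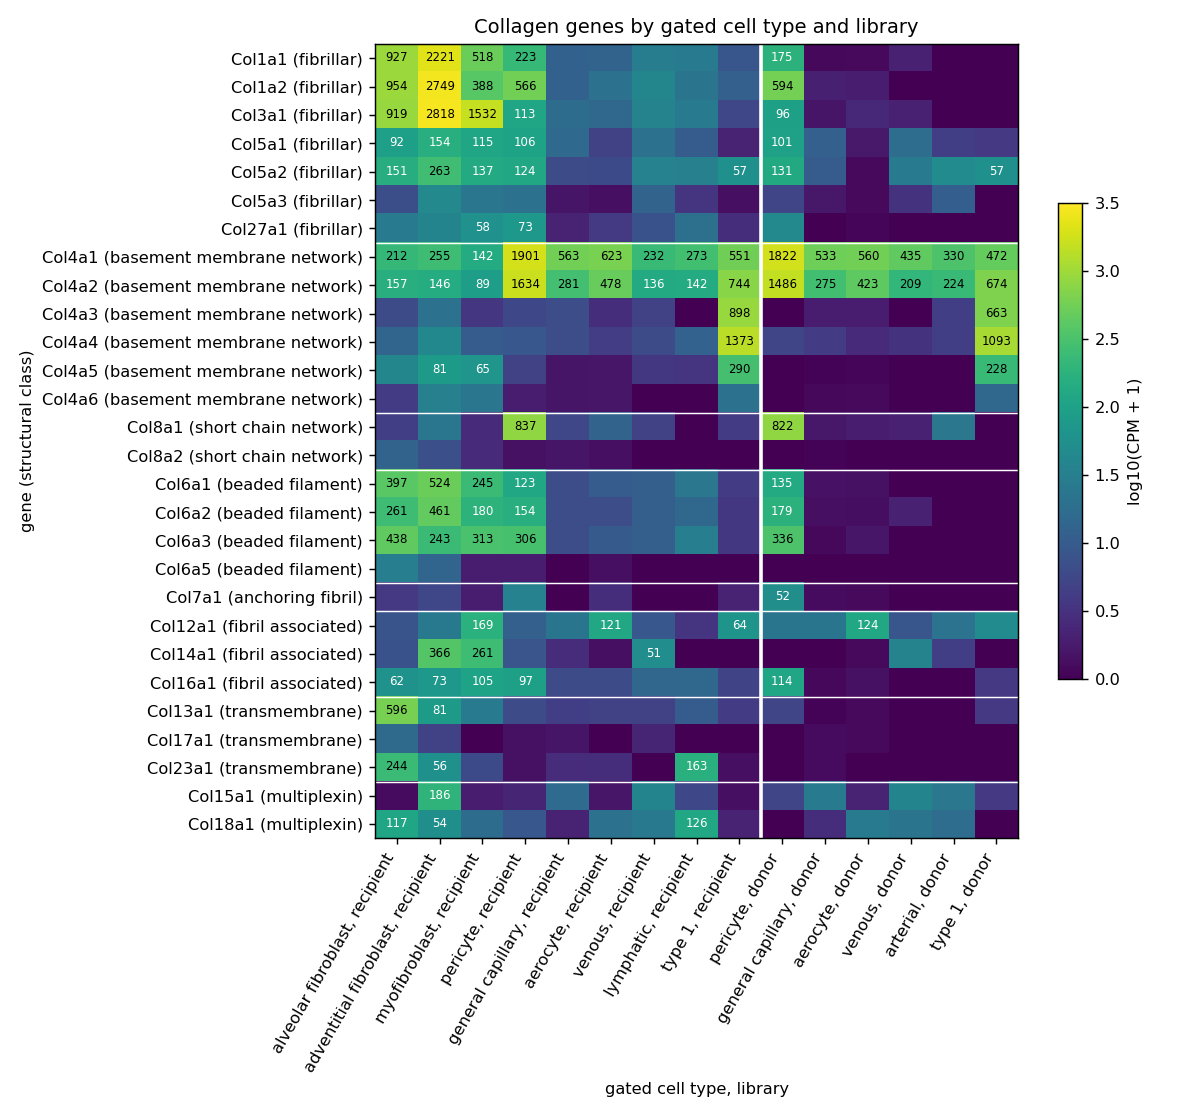
Level of the collagen genes that reached 10 CPM in a gated type, as log10(CPM + 1), by gene (rows, with structural class) and by gated type and library (columns, recipient left of the white line, donor right). Numbers are printed where the level is 50 CPM or more. Fibrillar and type VI chains fill the fibroblast and pericyte columns, Col4a1 and Col4a2 fill every column, and Col4a3, Col4a4 and Col4a5 stand out in the type 1 columns (898, 1373 and 290 CPM in the recipient library).

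Over all cells, the chains of types I, III and V were highest in adventitial fibroblasts. Col1a1 and Col1a2, the 2 chains of type I collagen, stood at 2221 (2152 to 2291) and 2749 (2673 to 2828) CPM there, at 927 and 954 in alveolar fibroblasts, at 518 and 388 in myofibroblasts and at 223 and 566 in pericytes. Col3a1, the single chain of type III collagen, stood at 2818 CPM in adventitial fibroblasts, 1532 in myofibroblasts, 919 in alveolar fibroblasts and 113 in pericytes. The order of the fibroblasts thus differed between the 2 types: myofibroblasts were below alveolar fibroblasts in both type I chains and above them in Col3a1, with intervals that did not overlap. Col5a1, which helps to set fibril diameter, spanned a narrower range, from 92.4 CPM in alveolar fibroblasts to 154 in adventitial fibroblasts, with 115 in myofibroblasts and 106 in pericytes. Over the cells without a shared barcode, its alveolar to adventitial ratio was 0.825 (0.573 to 1.22). Its ratio of alveolar fibroblasts to myofibroblasts was 0.835 (0.656 to 1.07) there, and both intervals include 1. Its partner Col5a2 stood at 263 CPM in adventitial and 151 in alveolar fibroblasts, 137 in myofibroblasts and 124 in pericytes, and the interval of myofibroblasts (117 to 160) overlapped those of alveolar fibroblasts and pericytes. Col27a1, a fibrillar chain best known from cartilage, was instead highest in pericytes, at 72.9 CPM (62.3 to 84.9), and at 57.7 in myofibroblasts (44.8 to 73.1), which overlap.

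Against adventitial fibroblasts, 17 collagen genes were at 50 CPM or more in either type. A gene is called where the levels differ at least 2-fold with an interval beyond 1.5-fold. Of the 17, 3 were called higher in alveolar fibroblasts (12.6% of all 3677 genes at that level were) and 6 lower (10.7% of all). Col1a1 was 2.40-fold (2.29 to 2.51), Col1a2 2.88-fold (2.76 to 3.01) and Col3a1 3.07-fold (2.94 to 3.20) higher in adventitial fibroblasts. Col4a5 was 2.03-fold higher there (1.61 to 2.56), Col14a1 56.2-fold (38.0 to 86.6), and Col15a1, with 1 UMI in alveolar fibroblasts, 741-fold (132 to 29370). In the 57 adventitial fibroblasts without a shared barcode Col1a1 was at 1644, Col1a2 at 1730 and Col3a1 at 2129 CPM. Over the cells of both types without one, 2 genes were called higher (8.70% of all genes) and 3 lower (9.71%). The alveolar to adventitial ratios of Col1a1 (0.523, 0.473 to 0.579), Col1a2 (0.515, 0.467 to 0.569) and Col4a5 (0.498, 0.310 to 0.836) then no longer met the rule, nor did that of Col18a1 (2.43, 1.42 to 4.50). Those of Col14a1 (0.0299, 0.0168 to 0.0505) and Col15a1 (0.00304, 7.51e-05 to 0.0179) met it, with smaller differences than over all cells. So did Col3a1 (0.424, 0.387 to 0.464) and Col13a1 (5.52, 3.92 to 8.06), also with smaller differences. Col23a1 (5.92, 3.36 to 11.5) met it with a larger one. With every cell weighing the same, Col4a5 (log2 -0.94) did not meet it. With the level limit at 10 CPM and all cells, 4 were called higher (7.71%), Col17a1 joining, and 12 lower (8.82%), with Col4a3, Col4a4, Col4a6, Col5a3, Col8a1 and Col12a1 joining.

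Alveolar fibroblasts had the highest levels of the membrane-spanning chains Col13a1 and Col23a1. Col13a1, found at cell adhesions, was at 596 CPM (572 to 620) in them, 80.7 in adventitial fibroblasts, 28.0 in myofibroblasts and 5.21 in pericytes. Its ratio to the next type was 7.38 (6.23 to 8.79). Shares of cells with a UMI were taken after thinning each cell to 2500 UMIs, and shallower cells were left out. That removed 0 to 15 cells of each recipient type, 34 donor general capillary cells, 26 aerocytes, 4 venous and 33 of the 58 type 1 cells. So thinned, 73.7% of alveolar fibroblasts (69.9% to 77.3%) held a Col13a1 UMI, against 15.1% of adventitial fibroblasts and 0.667% of general capillary cells; unthinned, with median depths of 6611, 9977 and 5345 UMIs, the shares were 92.3%, 33.3% and 1.96%. Col23a1, a further membrane-spanning chain, was at 244 CPM in alveolar fibroblasts, 1.49-fold (1.17 to 1.93) over the 163 of lymphatic endothelial cells, and at 56.1 in adventitial fibroblasts, 5.09 in myofibroblasts and 0.434 in pericytes, the last from 1 UMI. Col18a1, the source of endostatin, was at 126 CPM in lymphatic cells, 117 in alveolar and 54.4 in adventitial fibroblasts. These 3 genes were the ones called higher in alveolar than in adventitial fibroblasts, at ratios of 7.38, 4.34 (3.53 to 5.39) and 2.15 (1.73 to 2.71). A further 3 chains, all low, had their highest level in alveolar fibroblasts too: Col6a5, a type VI chain, at 30.04 CPM, Col17a1, a chain of epithelial hemidesmosomes, at 15.3, and Col8a2, a type VIII chain, at 12.01.

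Col13a1 has its start on chromosome 10 (GRCm38, gene at 61838236 to 61979108, minus strand). The 250 bases before its start in RefSeq (GRCm38.p6, chr10:61979109-61979358, minus strand, overlapping no annotated exon) are shown because this gene separates alveolar fibroblasts from the other types, with the 1 match to the TATA box in capitals.
Col13a1: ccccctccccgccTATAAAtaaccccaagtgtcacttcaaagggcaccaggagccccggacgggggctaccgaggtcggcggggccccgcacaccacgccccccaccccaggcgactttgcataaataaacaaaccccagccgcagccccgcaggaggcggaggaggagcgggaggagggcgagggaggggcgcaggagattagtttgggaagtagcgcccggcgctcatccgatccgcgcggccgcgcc
The TATA box was searched on both strands as TATAAA, which 12.4% of all 32817 RefSeq windows of this length hold. The CCAAT box was searched by those letters, held by 33.8%. The GC box was searched as GGGCGG, held by 32.7%. The stretch holds no match to the last 2, and no matches overlap in the stretches shown here.

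Against myofibroblasts, 18 collagen genes were at level, of which 4 were called higher in alveolar fibroblasts (16.3% of all genes at level) and 3 lower (12.1%). Higher were Col1a2 (2.46-fold, 2.23 to 2.72), Col13a1 (21.3-fold), Col18a1 (7.27-fold) and Col23a1 (47.9-fold, 21.9 to 131). Lower were the fibril-associated chains Col12a1 (24.1-fold higher in myofibroblasts, 16.2 to 37.2) and Col14a1 (40.1-fold, 26.9 to 62.4), and Col27a1 (2.22-fold, 1.61 to 3.04). The median gene differed by -0.14 (log2) between these types, and with that removed Col27a1 stood at -1.01 and no longer met the rule. Nor did it with every cell weighing the same (-0.96). Over the 422 and 143 cells without a shared barcode 5 were called higher (16% of all genes), Col4a2 joining at 2.04-fold (1.57 to 2.67), and 2 lower (12.8%), with Col27a1 at a ratio of 0.574 (0.390 to 0.854). With the level limit at 10 CPM, 7 were called higher (10.7%) and 5 lower (9.07%), with Col6a5, Col8a2 and Col17a1 joining the first and Col4a6 and Col5a3 the second. Col14a1 was at 366 CPM in adventitial fibroblasts, 261 in myofibroblasts and 6.51 in alveolar fibroblasts. Col12a1 was at 169 CPM in myofibroblasts, 25.2 in adventitial and 7.01 in alveolar fibroblasts. Col16a1, the third fibril-associated chain, was at 105 CPM in myofibroblasts, 97.3 in pericytes, 73.4 in adventitial and 61.8 in alveolar fibroblasts. Its level in myofibroblasts was 1.70-fold (1.36 to 2.12) that in alveolar fibroblasts, under the 2-fold of the rule.

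Type VI collagen, the beaded filament around cells, was present in all 4 mesenchymal types. Col6a1 stood at 524 CPM in adventitial fibroblasts, 397 in alveolar fibroblasts, 245 in myofibroblasts and 123 in pericytes, and Col6a2 at 461, 261, 180 and 154. Col6a3 followed another order, with 438 CPM in alveolar fibroblasts, 313 in myofibroblasts, 306 in pericytes and 243 in adventitial fibroblasts. Col15a1, which bridges basement membrane and interstitium, was at 186 CPM (166 to 207) in adventitial fibroblasts and at most 1.30 CPM in the other 3 mesenchymal types.

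Pericytes, the cells that wrap capillaries, combined basement membrane chains with type VIII collagen. Col4a1 stood at 1901 CPM (1845 to 1958) and Col4a2 at 1634 (1582 to 1687), 3.05-fold (2.91 to 3.20) and 2.20-fold (2.08 to 2.32) over the next type. Col8a1, a chain of the short network collagen of vessel walls, stood at 837 CPM (800 to 875), 36.4-fold (26.7 to 50.9) over adventitial fibroblasts, the next type. At 2500 UMIs per cell, 76.5% of pericytes (72.1% to 80.5%) held a Col8a1 UMI and 2% of general capillary cells (6 of 300), and unthinned, at median depths of 5202 and 5345 UMIs, 88.6% and 2.61%. Col7a1, the anchoring fibril chain, had its highest level in pericytes as well, at 35.2 CPM (27.9 to 43.7). Of 16 collagen genes at level, 6 were called higher in alveolar fibroblasts than in pericytes (15.5% of all genes at level) and 4 lower (18.4%). Higher were Col1a1 (4.16-fold, 3.79 to 4.57), Col3a1 (8.11-fold), Col6a1 (3.23-fold), Col13a1 (114-fold), Col18a1 (14.99-fold) and Col23a1 (561-fold from 1 pericyte UMI, 100 to 22177). Lower were Col4a1 (8.98-fold higher in pericytes), Col4a2 (10.4-fold), Col8a1 (239-fold, 142 to 438) and Col27a1 (2.80-fold, 2.18 to 3.61). Over the cells without a shared barcode the same genes were called, and the ratio of Col8a1 was 0.00259 (0.000841 to 0.00607) in place of 0.00419. The median gene differed by -0.25 (log2) here, and with that removed Col1a2 (log2 1.003) and Col6a2 (log2 1.01) also met the rule. With the level limit at 10 CPM, 10 were called higher (13.7%), adding Col4a5, Col6a5, Col8a2 and Col17a1, and 6 lower (13.2%), adding Col5a3 and Col7a1.

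**Figure D2:**
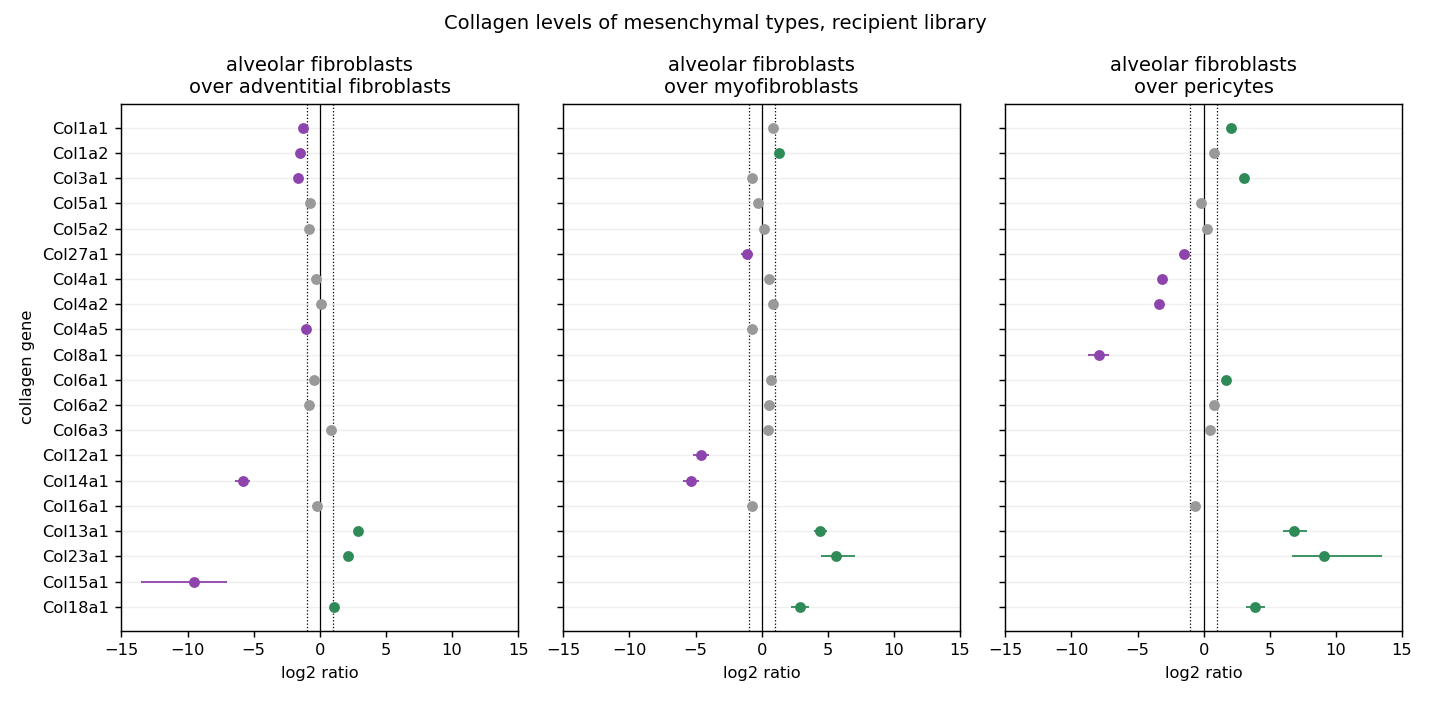
Log2 ratio of the level in alveolar fibroblasts over that in adventitial fibroblasts, myofibroblasts and pericytes of the recipient library, for each collagen gene at 50 CPM or more in either type. Lines are 95% intervals, with those of Col15a1 and Col23a1 running past the drawn end, green and purple points are called higher and lower, grey points are not called, and dotted lines mark 2-fold. Col13a1, Col18a1 and Col23a1 lie to the right in all 3 panels, and Col8a1 lies far to the left in the pericyte panel (239-fold higher in pericytes).

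The donor library offers a second, small set of pericytes. Its 42 cells, none with a shared barcode, held the check markers Ndufa4l2 and Postn at 1818 and 2862 CPM, against at most 5.69 in the other donor types, and Itga7, the other check marker, at 4.37 CPM. Their collagen total was 6131 CPM (5815 to 6461) against 6373 in the recipient library. Of the 14 collagen genes at level, 0 were called between the libraries, where 0.876% of all genes at level were called in either direction. Col4a1 was at 1822 and 1901 CPM in donor and recipient pericytes, Col4a2 at 1486 and 1634, Col8a1 at 822 and 837, and Col1a2 at 594 and 566. The largest gaps were in Col27a1, at 43.7 and 72.9 CPM (ratio 0.599, 0.282 to 1.13), and Col7a1, at 52.4 and 35.2 CPM (1.49, 0.740 to 2.75), from 10 and 12 donor UMIs. The intervals of both include 1.

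Col8a1 lies on chromosome 16 (GRCm38, 57624258 to 57754737, minus strand). The 250 bases before its start (GRCm38.p6, chr16:57754738-57754987, minus strand, overlapping no annotated exon) are shown because the gene marks pericytes in both libraries, with 4 matches to the GC box letters, read on the other strand, in capitals.
Col8a1: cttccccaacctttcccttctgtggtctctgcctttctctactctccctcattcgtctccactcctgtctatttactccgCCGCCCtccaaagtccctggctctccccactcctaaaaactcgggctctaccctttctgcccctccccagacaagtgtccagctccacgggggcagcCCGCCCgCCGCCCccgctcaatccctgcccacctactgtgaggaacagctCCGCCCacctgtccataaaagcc
It holds no match to the TATA or CCAAT box, and the shares of all windows of this length with each motif are those given for Col13a1.

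In type 1 cells, the flat epithelium of the alveolus, type IV chains made up most of the collagen UMIs, and 5 of the 7 members at 50 CPM were type IV. Col4a3 was at 898 CPM (863 to 935), Col4a4 at 1373 (1328 to 1418) and Col4a5 at 290 (270 to 311) in the recipient library. The next type was adventitial fibroblasts for each, at 19.6, 42.05 and 80.7 CPM, and no endothelial type exceeded 11.6 CPM for any of the 3. Col4a1 and Col4a2 were at 551 and 744 CPM, so type 1 cells held both chain sets. Col4a6 reached only 19.7 CPM there and had its highest level, 32.0 CPM, in adventitial fibroblasts. At 2500 UMIs per cell, 92.3% of type 1 cells (87.2% to 95.8%) held a Col4a4 UMI and 0.667% of general capillary cells, and unthinned, at median depths of 14372 and 5345 UMIs, 91.8% and 3.27%. In the 44 type 1 cells without a shared barcode the levels were 829 CPM for Col4a3, 1248 for Col4a4 and 238 for Col4a5.

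Against general capillary cells, 6 of 7 collagen genes at level were called higher in type 1 cells (20.0% of all genes at level) and 0 lower (26.1%). They were Col4a2 (2.65-fold, 2.39 to 2.93), Col4a3 (155-fold, 83.9 to 323), Col4a4 (236-fold, 128 to 493), Col4a5 (499-fold from 1 capillary UMI, 89.3 to 19736), the fibrillar chain Col5a2 (10.9-fold, 5.58 to 24.2) and Col12a1 (2.88-fold, 2.02 to 4.22). Col5a2 stood at 56.9 CPM without its usual partner Col5a1, which was at 1.14 CPM, whereas the pair was at 263 and 154 CPM in adventitial fibroblasts. In the 44 cells without a shared barcode Col5a2 (6.68-fold, 2.11 to 20.2) and Col12a1 (2.03-fold, 0.865 to 4.28) fell short of the rule. Both were under 50 CPM there, and the interval of Col12a1 also includes 1. The other 4 genes were called (17.2% of all genes at level). They were Col4a2 (2.02-fold, 1.63 to 2.49), Col4a3 (141-fold), Col4a4 (212-fold) and Col4a5 (404-fold, 69.0 to 16280). The median gene differed by -0.13 (log2) between these types, and with that removed the log2 ratio of Col4a1, at 0.979-fold, went from below to above 0. With the level limit at 10 CPM, 7 were called higher (15.7% of all genes), Col4a6 joining, and 3 lower (20.8%), Col3a1, Col5a1 and Col15a1.

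The 6 type IV genes form 3 pairs that lie start to start on opposite strands. Col4a1 and Col4a2 overlap by 22 bases on chromosome 8 (starts at 11312826 and 11312805), Col4a4 and Col4a3 are 71 bases apart on chromosome 1 (82586849 and 82586921), and Col4a6 and Col4a5 are 1308 bases apart on chromosome X (141474076 and 141475385). The 71 bases between Col4a4 and Col4a3 (GRCm38.p6, chr1:82586850-82586920, minus strand, no annotated exon) are shown because the 2 genes had the same leading type, and hold no match to the TATA, CCAAT and GC boxes, found in 4.42%, 13.3% and 20.7% of RefSeq windows of that length. Printed on the minus strand, they read from the Col4a3 start towards the Col4a4 start, and the label below only names the interval.
Col4a4 to Col4a3: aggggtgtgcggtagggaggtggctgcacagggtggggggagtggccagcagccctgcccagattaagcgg

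The ratio of Col4a3 to Col4a4 UMIs was 0.655 (0.621 to 0.689) in recipient and 0.607 (0.513 to 0.716) in donor type 1 cells. The ratio of Col4a1 to Col4a2 UMIs varied with the type. It was 2.002 (1.79 to 2.24) in recipient and 1.94 (1.85 to 2.03) in donor general capillary cells, 1.30 (1.23 to 1.38) and 1.32 (1.28 to 1.37) in aerocytes, 1.16 (1.11 to 1.22) and 1.23 (1.06 to 1.42) in pericytes, and 0.741 (0.692 to 0.793) and 0.700 (0.571 to 0.858) in type 1 cells. Type 1 cells were the only gated type with fewer Col4a1 than Col4a2 UMIs, and each of these 4 types kept its ratio between the libraries within counting error. For type I collagen, Col1a1 to Col1a2 was 1.34 (1.18 to 1.51) in myofibroblasts, 0.972 (0.929 to 1.02) in alveolar fibroblasts, 0.808 (0.774 to 0.842) in adventitial fibroblasts and 0.394 (0.355 to 0.436) in pericytes, with 0.294 (0.201 to 0.421) in donor pericytes. Over the cells without a shared barcode, the alveolar to adventitial ratios were 0.523 for Col1a1 and 0.515 for Col1a2. The gap in Col1a1 to Col1a2 between alveolar and adventitial fibroblasts was thus close to absent there. Col6a1 to Col6a2 was 1.52 (1.41 to 1.65) in alveolar fibroblasts and 0.799 (0.681 to 0.937) in pericytes, with 0.756 (0.458 to 1.24) in donor pericytes. Pericytes thus had the lowest ratio of the mesenchymal types for both of these pairs.

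**Figure D3:**
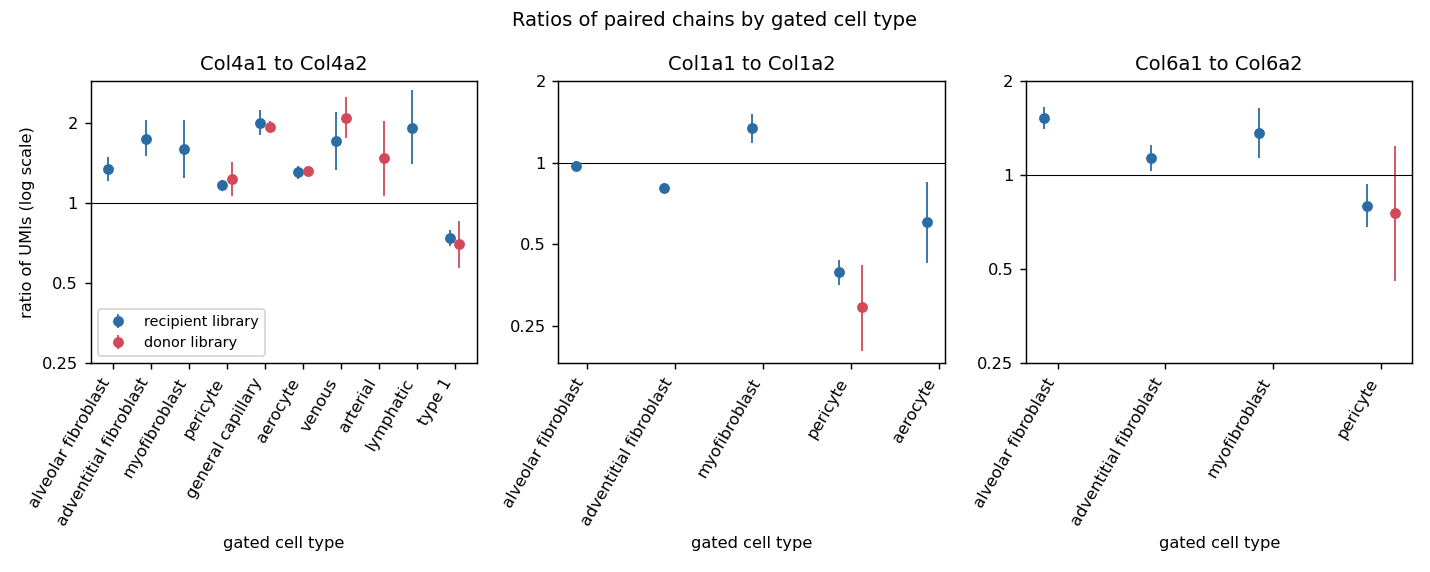
Ratio of summed UMIs of 2 chains of 1 collagen (log axis) by gated type, recipient in blue and donor in red, with exact 95% intervals, for types with at least 30 UMIs of each chain. Col4a1 to Col4a2 is near 2 in general capillary cells of both libraries and under 1 in type 1 cells of both, and Col1a1 to Col1a2 is lowest in pericytes.

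**Figure D4:**
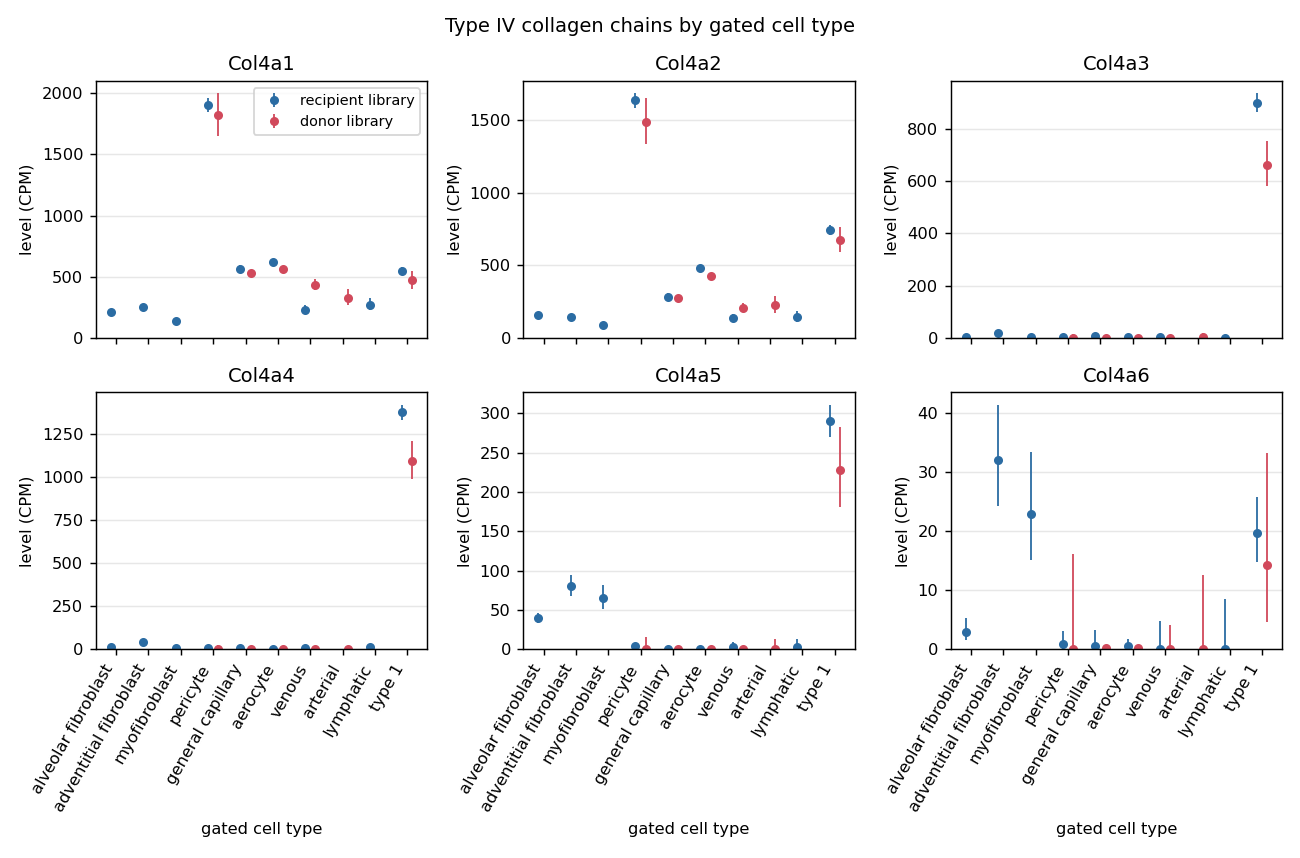
Level (CPM, axes from 0) of the 6 type IV chains by gated type, recipient in blue and donor in red, with exact Poisson 95% intervals. Col4a1 and Col4a2 peak in pericytes (1901 and 1634 CPM in the recipient library), and Col4a3, Col4a4 and Col4a5 in type 1 cells.

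Endothelial cells held few collagen genes at 50 CPM beyond Col4a1 and Col4a2. Col12a1, a fibril-associated chain known from tendon and dense connective tissue, set aerocytes apart. It was at 121 CPM (111 to 131) in recipient and 124 (118 to 130) in donor aerocytes, and at 22.1 (15.6 to 30.3) and 21.7 (19.0 to 24.7) in general capillary cells. It was the 1 of 3 collagen genes at level that was called, 5.47-fold (3.94 to 7.81) higher in aerocytes of the recipient library and 5.70-fold (4.96 to 6.57) in the donor library, where 10.1% and 9.51% of all genes at level were higher in aerocytes, and none was called higher in general capillary cells (14% and 13.4%). At 2500 UMIs per cell, 26.5% of recipient and 25.6% of donor aerocytes held a Col12a1 UMI, against 6.00% and 5.45% of general capillary cells. Col4a2 was 1.70-fold (1.54 to 1.88) and 1.54-fold (1.47 to 1.61) higher in aerocytes, under the 2-fold of the rule, and the gap in Col4a1 was 1.11-fold and 1.05-fold.

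With the level limit at 10 CPM, the same 3 further genes separated the capillary types in both libraries. Col15a1 was at 15.7 CPM in recipient and 25.8 in donor general capillary cells, against 0.618 and 1.15 in aerocytes. Col5a1 was at 14.5 and 10.96 CPM, against 3.91 and 0.721. Col18a1 went the other way, with 19.4 and 27.8 CPM in aerocytes and 1.16 and 1.89 in general capillary cells. At this limit 11.9% and 13.2% of all genes were called higher in general capillary cells and 7.08% and 7.53% lower.

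The larger vessels added other chains. Col14a1 was at 51.4 CPM (36.6 to 70.3) in recipient and 35.4 (24.2 to 49.9) in donor venous cells, and at 0 to 3.40 CPM in the other endothelial types. In venous cells Col15a1 was at 36.9 and 36.5 CPM, Col5a2 at 34.3 and 27.6, and Col18a1 at 25.04 and 21. The 39 recipient UMIs of Col14a1 were uneven, with 41.0% in 3 of the 91 cells. Lymphatic cells, used in the recipient library only, held Col23a1 at 163 CPM (127 to 206) and Col18a1 at 126 (94.5 to 164), the latter 1.07-fold (0.795 to 1.43) the level of alveolar fibroblasts, with Col4a1 at 273 and Col4a2 at 142. Col23a1 was at most 1.85 CPM in the other endothelial types. The 50 donor arterial cells held Col4a1 at 330 and Col4a2 at 224 CPM, and Col5a2 at 47.6 CPM (26.0 to 79.9).

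Fibroblast collagens in endothelial cells were read against fibroblast genes that endothelium is not known for. Decorin (Dcn), Inmt, Lum and Gpx3 in recipient general capillary cells stood at 1.19% of their level in the pooled mesenchymal cells of that library. A carry-over of that size gives 11.2 CPM of Col1a1, 13.4 of Col1a2 and 14.1 of Col3a1, and the measured levels were 11.04, 11.04 and 16.3 CPM. Donor general capillary cells, with 0.128%, held 0.189, 1.04 and 0.567 CPM of these 3. At the limit of 10 CPM these 3 were called lower in donor general capillary cells (1.61% of all genes), as were these and Col8a1 in donor aerocytes (1.12%) and these with Col6a1, Col6a3 and Col16a1 in donor venous cells (1.56%). Expected levels of Col1a1, Col1a2 and Col3a1 are given for recipient general capillary cells only. There 5 of the 8 collagen genes at 10 CPM had an interval above their carry-over level. In recipient venous cells, with 2.27%, 10 of 15 did, and in recipient aerocytes 4 of 8, or 8 of 8 without Gpx3. The part of carry-over in these differences was not tested. Col14a1 in venous cells was 22.9 times its carry-over level of 2.25 CPM in the recipient library, Col12a1 in aerocytes 68.5 times, and Col23a1 in lymphatic cells 39.6 times. Gpx3 stood at 378 and 388 CPM in recipient and donor aerocytes, where Dcn was at 17.3 and 0.288, and raised their estimate to 5.69%, against 0.889% without it in the recipient library.

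Between donor and recipient, none of the collagen genes at 50 CPM met the rule in general capillary cells (2 at level), aerocytes (3), venous cells (3) or type 1 cells (7). Of all genes at level, 1.98%, 0.409%, 1.62% and 3.71% did, in either direction. Col4a1 and Col4a2 were at 533 and 275 CPM in donor and at 563 and 281 in recipient general capillary cells, ratios of 0.947 (0.885 to 1.02) and 0.979 (0.889 to 1.08). In aerocytes Col4a1 was at 560 and 623 CPM (0.899, 0.861 to 0.938), Col4a2 at 423 and 478 (0.885, 0.843 to 0.929) and Col12a1 at 124 and 121 (1.02, 0.933 to 1.13). In both capillary types the intervals exclude a 1.5-fold difference for each of these genes. Col15a1 in general capillary cells, at 25.8 and 15.7 CPM, had a ratio of 1.64 (1.11 to 2.54).

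Venous cells had the widest gap in a gene at level. Col4a1 stood at 435 CPM (394 to 481) in donor and 232 (199 to 269) in recipient venous cells, a ratio of 1.88 (1.57 to 2.26), and Col4a2 at 209 and 136, a ratio of 1.54 (1.20 to 1.98). The intervals of the levels do not overlap, and both ratios stayed under 2. At 2500 UMIs per cell, 59.4% of donor (48.9% to 69.3%) and 33.3% of recipient (23.7% to 44.1%) venous cells held a Col4a1 UMI. At 1500 UMIs per cell the shares were 36.7% and 35.2%, so the gap in shares was not seen at that depth. The recipient share did not fall with the lower depth, and the part of the random thinning in these shares was not tested. These rest on 100 and 91 cells of 1 library each. With types set by a plain majority of marker UMIs, Col3a1 was called lower in donor venous cells, at 0.946 against 56.5 CPM (1.17% of all genes).

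In type 1 cells Col4a3 was at 663 CPM in donor and 898 in recipient cells (0.738, 0.642 to 0.845), Col4a4 at 1093 and 1373 (0.796, 0.715 to 0.885) and Col4a5 at 228 and 290 (0.785, 0.615 to 0.989). Col4a1 was at 472 and 551 CPM, Col4a2 at 674 and 744, Col5a2 at 56.9 in both and Col12a1 at 48.4 and 63.7. The donor cells were shallow, with a median of 2195 UMIs against 14372, and their 10 deepest cells gave 55.6% of the UMIs against 10.5%. With every cell weighing the same, Col4a3 was at 386 and 866 CPM and Col4a4 at 536 and 1302, and Col4a1, Col4a3, Col4a4 and Col4a5 were called lower in the donor library, at log2 ratios of -1.24, -1.17, -1.28 and -1.26, as were 3.96% of all genes at level. The 6 endothelial lineage markers summed to 1721 CPM in donor and 111 CPM in recipient type 1 cells, and the 6 type 1 markers to 40153 and 43128 CPM. Type 2 markers summed to 632 and 295 CPM. The part of depth and of other cells' RNA in the result was not tested. Without any shared barcode, 53 donor and 44 recipient cells gave 664 and 829 CPM for Col4a3 and 948 and 1248 for Col4a4.

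**Figure D5:**
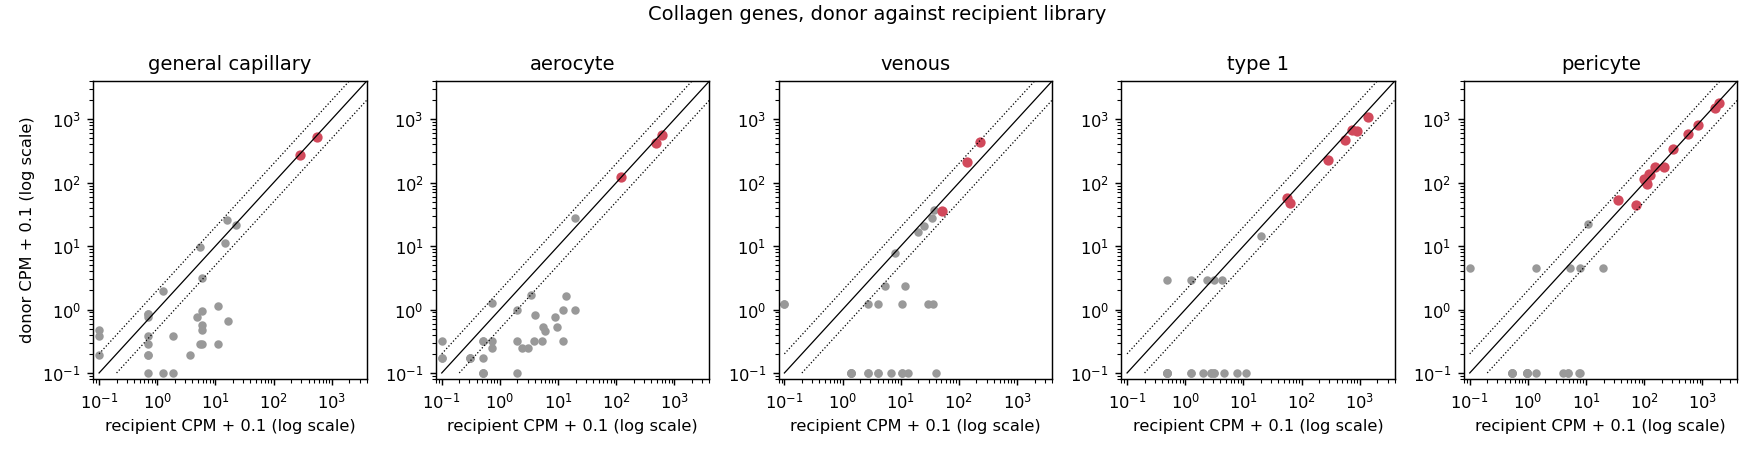
Level of each collagen gene in the donor library against the recipient library, as CPM + 0.1 on log axes, for 5 gated types. Red points are at 50 CPM or more in either library, grey points are below, the solid line marks equal levels and the dotted lines 2-fold. Red points lie within 2-fold in every panel. Some grey points of endothelial panels fall below the lines at 10 to 40 CPM in the recipient library, among them Col1a1, Col1a2 and Col3a1. Others in that range, such as Col15a1 and Col5a2 in venous cells, lie within 2-fold.

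The genes that make and use collagen were followed as 5 lists. Of 19 genes of chain modification and folding, 10 were at 50 CPM or more in alveolar fibroblasts, 11 in adventitial fibroblasts, 8 in type 1 cells and 7 in aerocytes and general capillary cells of the recipient library. The collagen chaperone Serpinh1 stood at 893 CPM in adventitial fibroblasts, 717 in pericytes, 528 in alveolar fibroblasts, 328 in type 1 cells and 136 in general capillary cells, and the prolyl isomerase Ppib at 801, 593, 498, 603 and 489. Against general capillary cells, 5 of the 11 genes of this list at level were called higher in type 1 cells and 2 lower, where 20.0% and 26.1% of all genes were. The procollagen hydroxylases P4ha2 and Plod2, named after their values were seen, were at 218 and 238 CPM in type 1 cells and at 26.7 and 16.3 in general capillary cells. P4ha3, a further prolyl hydroxylase subunit beside P4ha1, P4ha2 and P4hb and named likewise, was at 125 CPM in myofibroblasts and at most 4.55 in any other type of that library.

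Of 8 genes of propeptide processing, 3 were at level in each fibroblast type. Pcolce2, an enhancer of procollagen cleavage, stood at 2363 CPM in alveolar fibroblasts, 1210.5 in adventitial fibroblasts, 601 in myofibroblasts and 9.99 in pericytes. It was also at 395 and 336 CPM in recipient and donor aerocytes, against 12.8 and 3.31 in general capillary cells. Its relative Pcolce was at 856 CPM in adventitial fibroblasts, 551 in alveolar fibroblasts, 267 in pericytes and 100 in type 1 cells. Of 5 crosslinking enzymes, Loxl1 was at 515 CPM in alveolar and 511 in adventitial fibroblasts, and Lox at 308 and 94.2, with 1.74 CPM of Lox in pericytes. No crosslinking enzyme reached 50 CPM in an endothelial, pericyte or type 1 gate of the recipient library.

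Of 11 turnover genes, the protease inhibitors Timp3 and Timp2 were highest, at 2650 and 1577 CPM in adventitial fibroblasts. In type 1 cells they were at 2366 and 860 CPM, in aerocytes at 1104 and 1085 and in general capillary cells at 522 and 267. Of 7 receptors, the integrin subunit Itga1 was at 1773 CPM in pericytes, 1045 in general capillary cells and 185 in aerocytes, and its partner Itgb1 at 865, 479 and 527. Of the 50 genes of the 5 lists, none was called between donor and recipient in general capillary cells (12 at level), aerocytes (13), venous cells (14) or pericytes (19), where 1.98%, 0.409%, 1.62% and 0.876% of all genes at level were. In type 1 cells 1 of 15 was (3.71% of all), Itga1, at 122 CPM in donor and 8.34 in recipient cells (14.7-fold, 8.59 to 25.8), with 1417 CPM in donor general capillary cells beside the endothelial markers given above.

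The remaining members were low in every gated type. Col4a6 (32.0 CPM) and Col5a3 (43.7) had their highest level in adventitial fibroblasts. Between 1 and 10 CPM at their highest were Col22a1 (7.63, myofibroblasts), Col20a1 (6.80, donor arterial cells), Col6a6 (5.09), Col11a1 (5.05), Col25a1 (4.78), Col28a1 (2.24), Col24a1 (1.32), Col9a2 (1.32) and Col9a3 (1.30). Under 1 CPM were Col11a2 (0.868), Col26a1 (0.561), Col10a1 (0.379) and Col2a1 (0.206), mostly chains of cartilage. Col6a4, Col9a1 and Col19a1 had 0 UMIs in every gated type. For scale, 3 UMIs, the value set for a side with 0, equal 0.216 CPM in donor aerocytes and 10.2 CPM in donor arterial cells.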

How the data were processed

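Per the labels' protocols, CD45-negative lung cells of 3 pooled chimeric mice were sorted by tdTomato and run on the 10x Genomics platform, giving 1 library per sort. Each matrix, as deposited, holds unnormalized UMI counts for every gene in every barcode, made by the authors with Cell Ranger on mm10. Its version is 4.0.0 per the submitters' processing notes and another per the labels' protocol. The files other than the matrices, the barcodes and the gene features, hold names and no measurement, per the file headers.

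Outlying barcodes, by over 3 scaled median absolute deviations in genes, UMIs or mitochondrial share, were left out (1332 of 6319 donor and 473 of 3784 recipient barcodes). Scrublet (scanpy 1.11.5) marked 2 donor barcodes by its automatic threshold, a failed call, so the highest scores were removed in both libraries at 0.8% per 1000 barcodes (284 and 102 cells). Of barcodes in both libraries the smaller copy was left out. This left 4578 donor cells (31653769 UMIs, median 6089) and 3199 recipient cells (23445266 UMIs, median 6385).

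A cell entered a lineage with at least 4 UMIs from 2 or more markers and 75% of the marker UMIs counted. The lineage in question counted with its lineage markers and the markers of its types, the other lineages with their lineage markers alone. This favours the lineage in question, so a cell could enter it with more UMIs of other lineages than 75% of lineage markers would allow. A cell entered a type with at least 3 UMIs from 2 markers and 60% of the type marker UMIs of its lineage. UMIs were summed per type. Levels carry exact Poisson intervals, shares exact Clopper-Pearson intervals and ratios exact conditional intervals, all at 95% and for counting error only. A side with 0 UMIs was set to 3. The call rule (2-fold, interval beyond 1.5-fold, 50 CPM in the higher) was checked on simulated counts of general capillary cells with counting error alone. That is the error the intervals assume, so the check does not cover spread between cells or mice, carry-over or types of few cells. Every gene was compared, and alternatives were other gates, filters, doublet and barcode treatment, weighting, scaling, level limits and thinning depth.

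Positions are from GENCODE M21 (GRCm38), which held all 44 genes, and promoter stretches from RefSeq (GRCm38.p6), which held 35. Protein sequences were not used here. Members, marker genes and lists were chosen with earlier results of these data known. Genes were named by level: members at 50 CPM one by one, the others with their highest level, every called member, and the 2 highest genes of each list.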

Additional observations from a re-analysis of the deposited data

How the results depend on the processing

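No paired analysis was possible because each group holds 1 library. No call changed direction under any alternative, and 297 of the 320 alternative values of the counts stayed within 1.5 times. Only the other 23 counts are listed below, with shares of all genes in brackets. Of the 661 alternative values of single genes and shares, 89 moved beyond counting error, 78 of them among the 94 shares of cells with a UMI. Those were taken at 1500 in place of 2500 UMIs per cell, which leaves fewer UMIs in a cell and can let more cells in. The other moved values were 7 log2 ratios within the recipient or donor library under another scaling, and 4 under other gates, cell filters or weighting. A level limit of 10 CPM in place of 50 gave 8 collagen genes at level in recipient general capillary cells, 8 in aerocytes, 15 in venous and 14 in lymphatic cells, and 5 in donor general capillary, 7 in donor venous and 8 in donor arterial cells. At that limit 3 were called lower in donor general capillary cells (1.61%), 4 in aerocytes (1.12%) and 6 in venous cells (1.56%). Alveolar fibroblasts then had 12 lower than adventitial fibroblasts (8.82%), 7 higher (10.7%) and 5 lower (9.07%) than myofibroblasts and 10 higher than pericytes (13.7%). General capillary cells had 2 higher (11.9%) and 2 lower (7.08%) than aerocytes in the recipient library. They had 2 higher (13.2%) and 2 lower (7.53%) in the donor library, and type 1 cells 3 lower than general capillary cells (20.8%). A plain majority of marker UMIs gave 1 called lower in donor venous cells (1.17%). With every cell weighing the same, 4 were called lower in donor type 1 cells (3.96%). With no shared barcode, 3 were lower in alveolar than in adventitial fibroblasts (9.71%), and without Gpx3, 8 lay above carry-over in recipient aerocytes in place of 4. These last 2 alternatives, and the donor pericytes, were chosen after seeing the data. The cause of these changes was not tested, except that a lower limit admits more genes. Depth limits the types of few cells or UMIs, such as the 50 donor arterial cells and the 42 donor pericytes, and levels from 1 pool of 3 mice carry no estimate of the spread between mice.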
